A study of Mus musculus with 6 samples.

Results

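The 10 mouse genes Adgrl1, Adgrl2, Adgrl3, Tenm1, Tenm2, Tenm3, Tenm4, Flrt1, Flrt2 and Flrt3 encode the latrophilins, the teneurins and the fibronectin leucine rich transmembrane (FLRT) proteins. They were matched by symbol to their Ensembl identifiers among the 52550 genes of the count table. All 10 passed the filter on low counts. Of the 40961 splicing events listed for the series, 61 belonged to these genes. Hippocampal RNA gave 3 libraries of a control group, titled WT, and 3 of a group titled hnRNPDL-KD. The latter is called L-DL KD here, after the paper. The labels call its mice both knockouts and knockdowns, and the paper describes a knockdown by shRNA. The mice were male C57BL/6 J mice on a wild-type background that received adeno-associated virus in both CA1 areas at 8 weeks of age. The control virus carried control shRNA. The other virus carried shRNAs against L-DL, the long isoform of the RNA binding protein hnRNP DL, driven by the H1 promoter, so that any transduced cell could express them. The injected areas were marked by zsGreen from a CamkIIα promoter, the control virus was given at a higher titre than the L-DL virus, and whole hippocampus was labelled as the tissue.

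Latrophilins are adhesion G protein-coupled receptors of the synapse, named as receptors of the spider toxin α-latrotoxin. Their long extracellular part carries a lectin domain and an olfactomedin domain, to which teneurins and FLRTs bind from the opposite membrane. Latrophilin 2 and latrophilin 3 are known to sit on different dendritic compartments of CA1 pyramidal neurons, where they support different sets of excitatory inputs, and teneurin 3 guides the connection of CA1 with the subiculum. Teneurins are very large proteins with EGF repeats and a β-propeller, and both they and the latrophilins are spliced through short cassette exons that change the ligand binding surface.

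The libraries held similar totals, with 16052529 to 16995425 counted reads in the controls and 16525467 to 17913064 in the L-DL KD libraries, called KD-labelled here. The gene counts did not separate the long from the short hnRNP DL isoform. Hnrnpdl, the targeted gene, had 177 ± 6.41 CPM (mean ± SD over 3 libraries) in controls and 180 ± 33.9 CPM where KD was the label. The gene count thus showed no fall, and it cannot show the level of the long isoform alone. The paper measured the knockdown of L-DL as protein, by immunoblot of injected hippocampus. Across all genes, 5379 of 17621 differed between the groups by edgeR's quasi-likelihood test with a Benjamini-Hochberg adjusted p under 0.05 (30.5%), of which 2636 were lower (15.0%) and 2743 higher (15.6%) in the KD-labelled libraries. Without control replicate 1, 2 or 3 this count was 3524, 3541 or 3498, and with any 1 library left out it lay between 3498 and 6477. Nothing in the labels says that the 3 libraries of a group are more than separate samples, so p-values measure the spread between these samples.

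Expression was compared first, as CPM, the counts scaled to a common library size by the TMM method. Adgrl2, Tenm2, Flrt1 and Adgrl1 were lower in the KD-labelled libraries, and none of the 10 genes was called higher. This was 40.0% of the genes, against 15.0% called lower among all genes tested. The largest differences were those of Flrt1, at 44.1% of its control level, and Adgrl2, at 57.3%. The groups did not overlap for the same 4 genes, 40.0% of the 10, against 47.2% among all genes tested. The median log2 fold change was -0.22 over the 10 genes and 0.01 over all genes tested.

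**Figure D1:**
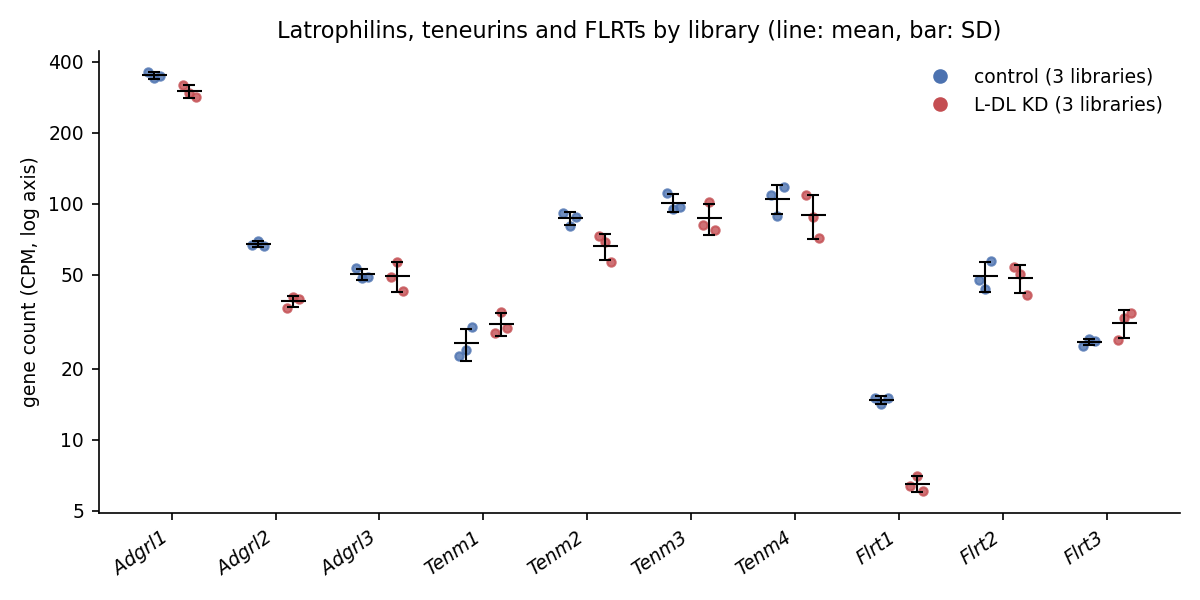
Gene counts of the 10 genes in CPM on a log axis, with 1 point per library in the 3 control and the 3 KD-labelled libraries, a line at the group mean and a bar of 1 SD. The points of the groups lie apart for Adgrl1, Adgrl2, Tenm2 and Flrt1 and overlap for the other 6 genes.

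Adgrl2 encodes latrophilin 2 and lies on the minus strand at chr3:148815583-148990555. Its level was 66.7, 69.8 and 66.2 CPM in the controls and 36.4, 40.3 and 39.4 CPM in the KD-labelled libraries. All 3 KD-labelled libraries thus lay below all controls, with a gap far wider than the spread within either group. The log2 fold change was -0.80 (SE 0.07, edgeR adjusted p = 0.000284). Adgrl2 kept its call under each of the 11 alternative settings, with a log2 fold change between -0.83 and -0.76.

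Adgrl1 encodes latrophilin 1 and lies on the plus strand at chr8:83900105-83941954. It was measured at 363, 340.1 and 347 CPM in the controls and 319, 296 and 283 CPM in the KD-labelled libraries. The groups lay apart, but the difference was small, with a log2 fold change of -0.23 (SE 0.07, edgeR adjusted p = 0.0413). The adjusted p of Adgrl1 was under 0.05 in 3 of 11 alternative settings and ranged from 0.0117 to 0.140, and it was 0.064 without TMM. It also passed 0.05 without control replicate 1 (0.140), control replicate 2 (0.0863), control replicate 3 (0.102), L-DL KD replicate 2 (0.108) or L-DL KD replicate 3 (0.0923). A protein-coding gene on the other strand, Gm10644, shares 1107 exon bases with Adgrl1, and whether counting used strand is not given in the sources used here.

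Adgrl3 encodes latrophilin 3 and lies on the plus strand at chr5:81020138-81825133. It was at 53.4, 48.4 and 49.0 CPM in the controls and 48.8, 56.9 and 42.7 CPM in the KD-labelled libraries. The controls fell inside the range of the other group, and the log2 fold change was -0.02 (SE 0.11, edgeR adjusted p = 0.898).

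The 3 latrophilins were also compared with each other, since a ratio within a library does not depend on scaling. The log2 ratio of Adgrl2 to Adgrl3 counts was 0.32, 0.53 and 0.43 in the controls and -0.42, -0.50 and -0.11 in the KD-labelled libraries. Adgrl2 thus had more counts than Adgrl3 in each control and fewer in each KD-labelled library. The difference was -0.77, without overlap (two-sided exact permutation p = 0.1, the smallest this design can give). The log2 ratio of Adgrl2 to Adgrl1 differed by -0.58 between the groups, without overlap (exact permutation p = 0.1). That of Adgrl1 to Adgrl3 differed by only -0.19, also without overlap (exact permutation p = 0.1). The share of gene pairs without overlap over the whole table was not computed.

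Tenm2, a teneurin that binds latrophilin 1, lies on the minus strand at chr11:36006656-37235964. Its level was 91.1, 80.9 and 88.1 CPM in the controls and 73.2, 69.0 and 56.9 CPM in the KD-labelled libraries. The highest KD-labelled library lay below the lowest control, and the log2 fold change was -0.39 (SE 0.10, edgeR adjusted p = 0.0235). This call was lost without control replicate 1 (adjusted p = 0.0861) and without control replicate 3 (adjusted p = 0.0768).

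Tenm3 and Tenm4 had log2 fold changes close to that of Adgrl1 but a wider spread. Tenm3 was at 112, 94.9 and 97.0 CPM in the controls and 81.5, 102 and 77.7 CPM in the KD-labelled libraries, with a log2 fold change of -0.22 (SE 0.12, edgeR adjusted p = 0.202). Tenm4 was at 109, 89.2 and 118 CPM in the controls and 109.5, 88.0 and 71.9 CPM in the KD-labelled libraries, with a log2 fold change of -0.23 (SE 0.16, edgeR adjusted p = 0.319). In both, 1 or more KD-labelled libraries lay among the controls. Without L-DL KD replicate 2 the adjusted p of Tenm3 was 0.0423, and without L-DL KD replicate 1 that of Tenm4 was 0.039. Without L-DL KD replicate 3 the log2 fold changes were -0.14 for Tenm3 and -0.09 for Tenm4 (edgeR adjusted p = 0.436 and 0.694).

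Tenm1, on the X chromosome, had the opposite sign. It was at 22.6, 24.1 and 30.1 CPM in the controls and 28.4, 34.9 and 29.6 CPM in the KD-labelled libraries, and the groups overlapped (log2 fold change 0.28, SE 0.14, edgeR adjusted p = 0.166). Its exons share 1465 bases with Sh2d1a on the other strand. The log2 ratio of Tenm2 to Tenm1 counts differed by -0.68 between the groups without overlap (exact permutation p = 0.1), whereas the ratios of Tenm2 to Tenm3 and to Tenm4 overlapped (exact permutation p = 0.3 for each).

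Flrt1, the FLRT gene with the fewest counts in these libraries, lies on the minus strand at chr19:7092001-7105729, within Macrod1 and sharing no exon base with it. It was at 15.0, 14.2 and 15.1 CPM in the controls, from 238 to 244 counts, and at 6.38, 7.05 and 6.07 CPM in the KD-labelled libraries, from 102 to 126 counts. Every KD-labelled library was thus under every control by a wide margin. The log2 fold change was -1.18 (SE 0.13, edgeR adjusted p = 0.000588), and the call stood under each of the 11 alternative settings, with values between -1.24 and -1.13.

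Flrt2, a ligand of Unc5 receptors as well as of latrophilins, was at 47.4, 43.6 and 57.4 CPM in the controls and 54.1, 50.7 and 41.2 CPM in the KD-labelled libraries. Its groups overlapped throughout (log2 fold change -0.02, SE 0.13, edgeR adjusted p = 0.915). Flrt3, a high-affinity ligand of latrophilin 3, was at 25.04, 26.7 and 26.2 CPM in the controls and 26.4, 33.0 and 34.3 CPM in the KD-labelled libraries. One KD-labelled library lay among the controls and the others above them (log2 fold change 0.27, SE 0.12, edgeR adjusted p = 0.124), and without that library, L-DL KD replicate 1, the adjusted p was 0.0117. The log2 ratio of Flrt1 to Flrt2 counts differed by -1.16 between the groups, and that of Flrt1 to Flrt3 by -1.44, both without overlap (exact permutation p = 0.1 for each).

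To order the genes by level, CPM was divided by the summed length of each gene's exons in GENCODE M21. Adgrl1 was the most abundant of the 10 in both groups, at 40.8 ± 1.36 CPM per kb (SD, n = 3) in the controls and 34.9 ± 2.12 CPM per kb in the KD-labelled libraries. In the controls it was followed by Tenm3 (9.88 ± 0.891 CPM per kb), Tenm2 (7.56 ± 0.456), Flrt2 (6.41 ± 0.919), Flrt3 (5.34 ± 0.171), Tenm4 (5.005 ± 0.690), Adgrl2 (4.76 ± 0.137), Adgrl3 (2.83 ± 0.154), Flrt1 (2.51 ± 0.0882) and Tenm1 (1.44 ± 0.225). The control ranges of neighbours overlapped for Tenm2 and Flrt2, for Flrt3 and Tenm4, and for Tenm4 and Adgrl2. Adgrl2 stood above Adgrl3 in the controls, whereas their means were 2.72 ± 0.145 and 2.79 ± 0.400 CPM per kb in the KD-labelled libraries, where their ranges overlapped. Flrt1, at 1.11 ± 0.0857 CPM per kb, took the last place there in place of Tenm1.

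The wider pathway was described through lists of genes. Among 15 binding partners, 6 were lower and 1 was higher, against 15.0% lower and 15.6% higher among all genes tested. The median log2 fold change was -0.21 over the partners and 0.01 over all genes tested. Robo1, an axon guidance receptor that forms a complex with FLRTs, was at 66.9 ± 0.731 CPM (SD, n = 3) in controls and 35.7 ± 4.69 CPM in the KD-labelled libraries (log2 fold change -0.91, SE 0.10, edgeR adjusted p = 0.000647). Unc5a, a netrin receptor of the family that binds FLRTs, showed a log2 fold change of -0.80 (SE 0.08, edgeR adjusted p = 0.000488). Nrxn3, a neurexin, showed one of -0.79 (SE 0.18, edgeR adjusted p = 0.0136), and its levels were 165, 144 and 155 CPM against 97.3, 109 and 62.2 CPM. Rnd1, a small GTPase that binds the cytoplasmic part of FLRTs, was the only partner called higher (log2 fold change 0.83, SE 0.24, edgeR adjusted p = 0.0331), at 5.13 to 10.5 CPM against 12.5 to 14.7 CPM. No partner was called higher without control replicate 1 or 3 or L-DL KD replicate 2 or 3, and 3 were without L-DL KD replicate 1.

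Among 14 G proteins and cAMP enzymes through which latrophilins can signal, 6 were lower and 2 higher, with a median log2 fold change of -0.41. Among all genes tested, 15.0% were lower and 15.6% higher, so the count of higher genes was near that share. The genes called lower included Adcy2, an adenylyl cyclase (log2 fold change -0.75, SE 0.13, edgeR adjusted p = 0.0037), Gnai1, an inhibitory Gα subunit (-0.73, SE 0.15, adjusted p = 0.00762) and Gnaq, the Gαq subunit (-0.69, SE 0.06, adjusted p = 0.000292). The genes called higher were Gna13, the Gα13 subunit (0.69, SE 0.11, adjusted p = 0.00269) and Gnai2, an inhibitory Gα subunit (0.59, SE 0.09, adjusted p = 0.00259).

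Among 15 other adhesion G protein-coupled receptors of the brain, 3 were lower and 2 higher, with a median log2 fold change of 0.14. Both counts were near the shares among all genes tested, 15.0% lower and 15.6% higher. The receptors called lower were Celsr2 (log2 fold change -0.64, edgeR adjusted p = 0.00215), a seven-pass cadherin, and Adgrb1 (-0.56, adjusted p = 0.000802) and Adgrb2 (-0.45, adjusted p = 0.00368) of the BAI family. Adgrg1, also known as GPR56, was at 90.6 ± 6.57 CPM (SD, n = 3) in controls and 161 ± 11.6 CPM in the KD-labelled libraries (log2 fold change 0.83, SE 0.08, edgeR adjusted p = 0.000413), and Adgrf5 had a log2 fold change of 0.36 (edgeR adjusted p = 0.0347). Without control replicate 1 or 2, or L-DL KD replicate 2 or 3, only 1 receptor was called higher.

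**Figure D2:**
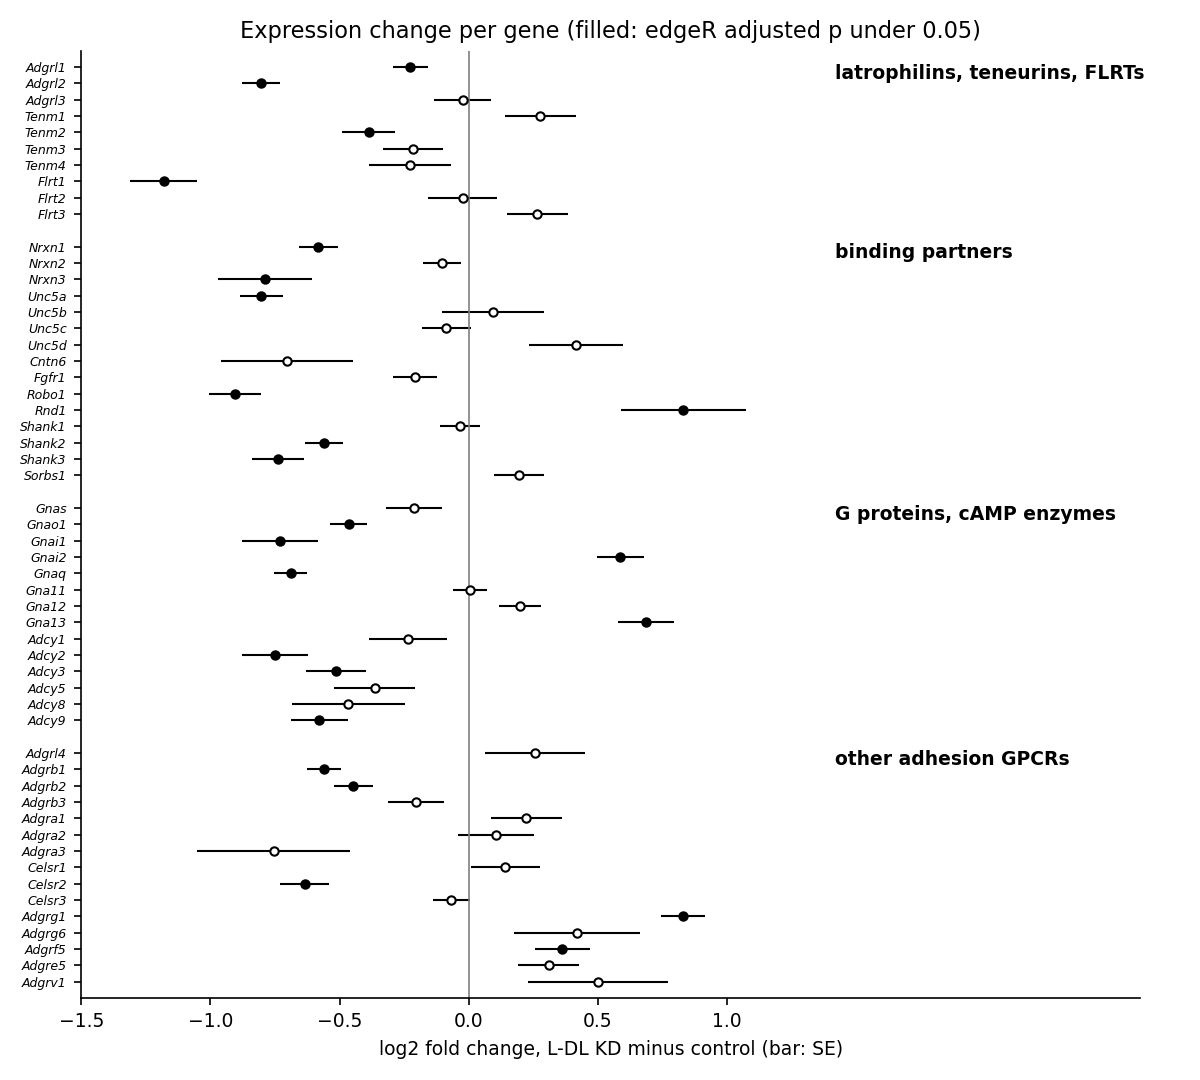
Log2 fold change of the KD-labelled libraries against the controls (horizontal axis, bar of 1 SE) for the 10 genes and 3 lists, with filled points for an edgeR adjusted p under 0.05. Flrt1 has the lowest value of the 10, at -1.18, and the lists hold filled points on both sides of 0.

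Markers of cell types differed between the groups as well. Among all genes tested, 15.0% were called lower and 15.6% higher. Of 12 neuronal markers, 11 were lower and 1 higher, with a median log2 fold change of -0.50 and a summed level of 6737 to 7248 CPM in the controls against 4319 to 5334 CPM in the KD-labelled libraries, and 4 to 6 were lower without any 1 control or without L-DL KD replicate 2. Of 8 CA1 markers 6 were lower (median -0.94, summed level 475 to 581 against 272 to 359 CPM), and of 8 interneuron markers 5 were lower (median -1.11, 632 to 706 against 245 to 453 CPM), or 3 without control replicate 1. All 10 microglial markers were higher (median 1.04, summed level 1181 to 1470 against 2508 to 3216 CPM), as were 6 of 7 endothelial and mural markers (median 0.61, 314 to 344 against 437 to 527 CPM). Lower and higher markers numbered 3 and 1 of 6 for CA2 and CA3, 3 and 2 of 7 for dentate granule cells, 4 and 1 of 8 for astrocytes, 0 and 3 of 8 for oligodendrocytes and their precursors, and 1 and 0 of 6 for T and B cells. The 5 choroid plexus markers summed to 418 to 4509 CPM in the controls and 29.0 to 5052 CPM in the KD-labelled libraries, so their level varied widely within both groups. No marker was at 0 in all libraries. In RNA from whole tissue, fewer cells of a type and less RNA per cell cannot be told apart, and the part of these shifts in the levels of the 10 genes was not tested.

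Splice form use was examined next. For each event rMATS counts the reads that include or skip an alternative segment, and the fraction of transcripts that include it (percent spliced in, PSI, given from 0 to 1) was computed from these counts and the length of each form. Of the 61 events of the 10 genes, 33 events over 31 segments had enough reads to be tested: 5 of Adgrl1, 11 of Adgrl2, 9 of Adgrl3, 1 of Tenm2, 2 of Tenm3 and 5 of Tenm4. The 3 events of Tenm1 had too few reads, the 2 of Flrt3 had 1 skipping read over all 6 libraries, under the minimum for a form, and Flrt1 and Flrt2 had none listed. One event, in Adgrl1, was called at an edgeR adjusted p under 0.05, which is 3.03% of the 33, against 0.255% of the 18829 events tested over all genes. With 1 library left out, the events called over all genes numbered from 0 to 52, against 48 with all libraries. Of the 33, 4 had an unadjusted p under 0.05 (12.1%, against 13.3% of all events) and 8 had PSI values that did not overlap between the groups (24.2%, against 18.4%).

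The called event was the retention of intron 19 of the transcript Adgrl1-207, which lies at chr8:83937326-83937460 on the plus strand of GRCm38. Its 135 bases are shown because it is the segment whose use differed, with the splice site dinucleotides at its ends in capitals.
Adgrl1 intron 19: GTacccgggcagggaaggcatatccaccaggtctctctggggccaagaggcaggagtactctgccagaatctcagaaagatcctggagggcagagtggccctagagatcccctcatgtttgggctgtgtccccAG

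Intron 19 was retained in 0.0991, 0.137 and 0.117 of transcripts in the controls and in 0.359, 0.359 and 0.364 in the KD-labelled libraries. The values of the latter group were nearly equal and lay well above all controls. The counts behind them were 70, 98 and 90 for the retained and 335, 324 and 359 for the spliced form in the controls. In the KD-labelled libraries they were 227, 267 and 184 for the retained and 213, 251 and 169 for the spliced form. The log2 change of the inclusion odds was 2.09 (SE 0.27, edgeR adjusted p = 0.0104), and PSI changed by 0.243 (exact permutation p = 0.1). In the order of unadjusted p it stood at place 9 of the 18829 events tested, and it was 1 of 4 retained introns called among 2294 tested, 3 of them with a rise of PSI.

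The direction of this event was the same in all 10 alternative fits, with a log2 change of the odds between 1.96 and 2.22. Its adjusted p was under 0.05 in 5 of them and reached 0.147 with limma on the log2 ratio of the forms. It was 0.108 without the first, 0.0572 without the second and 0.107 without the third control library of the splicing table, and 0.0677 without its second KD-labelled library.

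The intron belongs to a coding part of Adgrl1. In GENCODE M21, 3 coding transcripts splice it out and 2, Adgrl1-205 and Adgrl1-210, keep it within a coding exon. It starts at a codon boundary in both, its 135 bases make 45 codons, and the frame holds 0 stop codons. By annotation, then, both forms code for a latrophilin 1, which differ by this stretch.

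An 18 nt exon of Adgrl1, exon 22 of Adgrl1-207 at chr8:83937916-83937933, lies 455 bases downstream of the intron. It is shown as the segment of the 10 genes with the lowest unadjusted p after intron 19.
Adgrl1 exon 22: gaagctacagggaaccca

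Exon 22 was skipped by 0 reads in each control, against 280, 277 and 320 inclusion reads, which allows a share of skipping reads of up to 1.07%, 1.08% and 0.938%. In the KD-labelled libraries, 10, 6 and 3 reads skipped it, and PSI was 0.957, 0.975 and 0.984. Skipping reads were thus seen in all KD-labelled libraries and in no control, in small numbers. The edgeR adjusted p was 0.0936 (unadjusted p = 0.000769), so the event was not called, and its adjusted p ranged from 0.0871 to 0.285 over the alternatives.

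The other alternative exons of Adgrl1 showed overlapping groups. The cassette exon between the lectin and the olfactomedin domain, which encodes a short insert known to lower the affinity for teneurins, was included at 0.440, 0.416 and 0.466 in the controls and 0.302, 0.528 and 0.463 in the KD-labelled libraries (edgeR adjusted p = 0.968). A 150 nt exon upstream of it had a PSI of 0.0701 to 0.122 in the controls and 0.0854 to 0.113 in the KD-labelled libraries (edgeR adjusted p = 0.988).

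**Figure D3:**
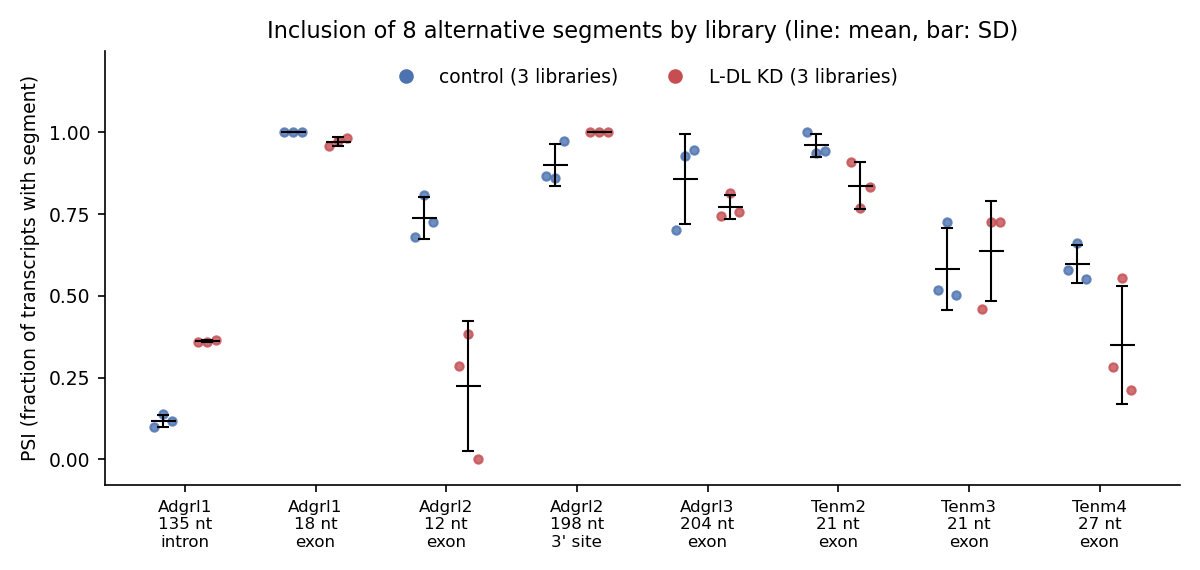
PSI, the fraction of transcripts that include a segment, in 3 control and 3 KD-labelled libraries for 8 alternative segments, with a point per library, a line at the mean and a bar of 1 SD. Intron 19 of Adgrl1 moves from between 0.0991 and 0.137 to between 0.359 and 0.364, and the 12 nt exon of Adgrl2 shows the widest gap between means.

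Short exons with a counterpart in a paralogous gene were then set side by side. At the site between the lectin and the olfactomedin domain each latrophilin carries 1 such exon: exon 5 of Adgrl1-210 (chr8:83926262-83926276), exon 4 of Adgrl2-208 (chr3:148860427-148860438, minus strand) and exon 8 of Adgrl3-217 (chr5:81509724-81509738). Their sequences are shown to let the inserts be compared, aligned at their 3′ ends, and capitals mark the bases that differ from Adgrl1.
Adgrl1, 15 nt: aagtggagcagaaag
Adgrl2, 12 nt: tggagcaAaaag
Adgrl3, 15 nt: aagtggaAcaAaaag

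The exon of Adgrl2 matches that of Adgrl1 at 11 of 12 bases, and that of Adgrl3 matches it at 13 of 15 bases. In the controls the mean PSI was 0.441 ± 0.0252 for Adgrl1, 0.738 ± 0.0642 for Adgrl2 and 0.897 ± 0.0150 for Adgrl3 (SD, n = 3 each), and the ranges did not overlap. This order holds for the tested events only. A second listed event of the Adgrl1 exon, on 13 to 28 reads a library and not tested, had a PSI of 1 in each control.

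In the KD-labelled libraries the Adgrl2 exon had a PSI of 0.285, 0.383 and 0, against 0.680, 0.807 and 0.727 in the controls. The groups lay apart, but the event rested on few reads, 23, 44 and 27 in the controls and 10, 20 and 7 in the KD-labelled libraries. The exact 95% binomial intervals, which cover counting error only, reached from 0.453 to 0.913 in the controls and from 0 to 0.636 in the other group. For the KD-labelled library with 0 inclusion reads, a count of 0 allows a share of up to 42.9% of its reads. The unadjusted p was 0.00986 and the edgeR adjusted p was 0.235, so the exon of Adgrl2 was not called. The counterpart in Adgrl3 was at 0.907, 0.880 and 0.904 in the controls and 0.907, 0.785 and 0.834 in the KD-labelled libraries, with overlapping groups (edgeR adjusted p = 0.819).

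A 198 nt stretch at the start of exon 5 of Adgrl2-202 (chr3:148852663-148852860), set by the choice between a pair of 3′ splice sites, had a PSI of 0.867, 0.860 and 0.973 in the controls and 1 in each KD-labelled library. There, 0 reads used the inner site among 45, 53 and 40, which allows up to 6.67%, 5.66% and 7.5% of the reads. Its unadjusted p was 0.0163 and the edgeR adjusted p 0.276. A 129 nt coding exon, exon 22 of Adgrl2-202, was at 0.673, 0.466 and 0.595 in the controls and 0.405, 0.382 and 0.257 in the KD-labelled libraries, without overlap (edgeR adjusted p = 0.391). A second tested event of this exon, with another boundary of a neighbouring exon, was at 1, 1 and 0.782 in the controls and 0.915, 1 and 0.473 in the KD-labelled libraries, with overlapping groups (edgeR adjusted p = 0.845). The 39 nt exon 8 and the 45 nt exon 17 of Adgrl2-202 had overlapping groups, at 0.684 to 0.755 and at 0.436 in each control, and at 0.381 to 0.749 and 0.308 to 0.607 in the KD-labelled libraries. The 7 Adgrl2 events tested beside the 12 nt, the 198 nt and the 129 nt segment had adjusted p-values from 0.529 to 0.960.

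In Adgrl3 none of the 9 events tested had an unadjusted p under 0.05. The best covered, the 204 nt exon 5 of Adgrl3-217, was at 0.700, 0.927 and 0.947 in the controls and 0.744, 0.814 and 0.758 in the KD-labelled libraries (edgeR adjusted p = 0.660). A single control, at 0.700, lay below all other libraries. The 27 nt exon 21 of Adgrl3-211 was the only Adgrl3 segment whose groups did not overlap, at 0.176, 0.176 and 0.321 against 0.127, 0.0767 and 0.138 (edgeR adjusted p = 0.527). The 39 nt exon 14 of Adgrl3-217 was at 0.925, 0.944 and 0.868 in the controls and 0.962, 0.918 and 0.650 in the KD-labelled libraries, of which the last lay below all others (edgeR adjusted p = 0.811).

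The teneurins share a 21 nt exon whose short insert lies in the β-propeller and is known to affect binding between teneurins and to latrophilins. It was listed in all 4 genes, as exon 21 of Tenm1-203, exon 22 of Tenm2-202, exon 20 of Tenm3-201 and exon 24 of Tenm4-203, and the sequences show how closely the paralogues agree. Capitals mark the bases that differ from Tenm3.
Tenm1, 21 nt: aaaCaGagatACCagacatag
Tenm2, 21 nt: aaataaagaGtttaAacatag
Tenm3, 21 nt: aaataaagattttagacatag
Tenm4, 21 nt: aaataaagatttCagacatag

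Tenm4 shares 20, Tenm2 shares 19 and Tenm1 shares 16 of the 21 bases with Tenm3. In the controls the exon was included at 1, 0.937 and 0.944 in Tenm2 and at 0.519, 0.726 and 0.502 in Tenm3, without overlap. In the KD-labelled libraries it was at 0.910, 0.768 and 0.833 in Tenm2, all below the controls (edgeR adjusted p = 0.524), and at 0.460, 0.726 and 0.726 in Tenm3 (edgeR adjusted p = 0.887). The Tenm2 exon rested on 12 to 36 reads a library. Of these, 0, 2 and 1 skipped it in the controls and 2, 4 and 3 in the KD-labelled libraries. Tenm4 varied from 0.610 to 0.944 in the controls and from 0.536 to 1 in the KD-labelled libraries (edgeR adjusted p = 0.995), on 12 to 30 reads a library. In Tenm1 only 1 to 12 reads a library covered the exon, too few to test.

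A second shared exon, of 27 nt, was listed for Tenm3 (exon 12 of Tenm3-201) and Tenm4 (exon 16 of Tenm4-203). It encodes an insert among the EGF repeats, and capitals mark the bases of Tenm4 that differ from Tenm3.
Tenm3, 27 nt: ctcactatttggataagatagttaaag
Tenm4, 27 nt: ctcactatCtggataGgGtagttaaag

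These agree at 24 of 27 bases. The Tenm4 exon was included at 0.580, 0.661 and 0.550 in the controls and 0.282, 0.553 and 0.212 in the KD-labelled libraries. One KD-labelled library lay at the level of the controls and the others below them (unadjusted p = 0.0702, edgeR adjusted p = 0.420). The Tenm3 exon was at 0.850, 0.532 and 0.440 in the controls and 0.622, 0.622 and 0.701 in the KD-labelled libraries, within the range of the controls (edgeR adjusted p = 0.970). The 99 nt exon 7 of Tenm4-203, another coding exon, was at 0.608, 0.481 and 0.415 in the controls and 0.567, 0.501 and 0.271 in the KD-labelled libraries, with overlapping groups (edgeR adjusted p = 0.938).

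**Figure D4:**
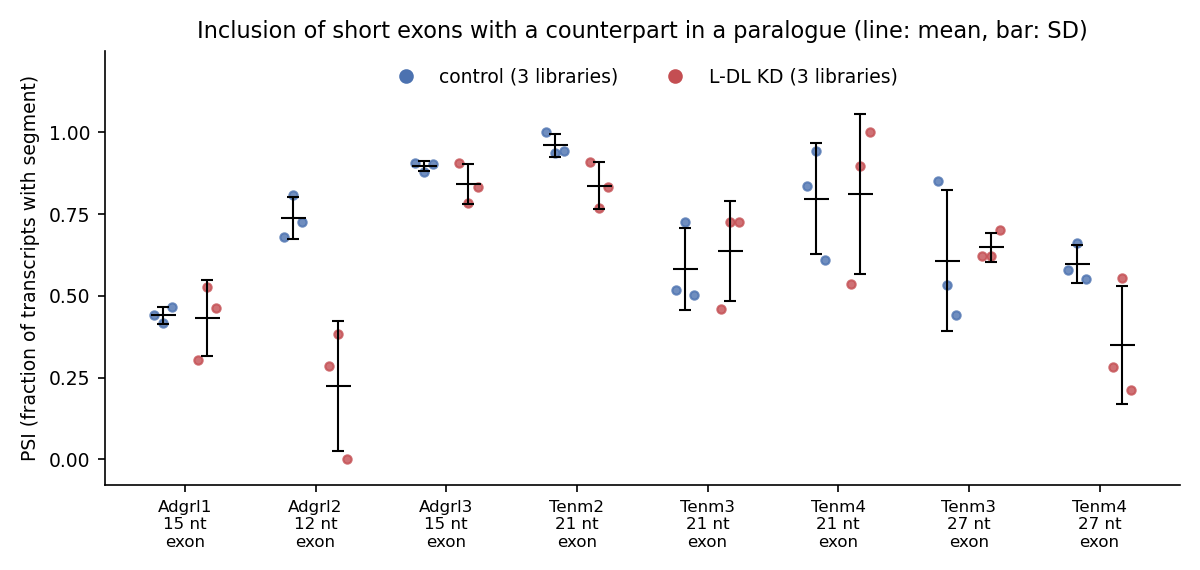
PSI of the short exons that have a counterpart in a paralogous gene, with 1 point per library, a line at the group mean and a bar of 1 SD. From left to right come the latrophilin exons of 15, 12 and 15 nt, the 21 nt exons of Tenm2, Tenm3 and Tenm4 and the 27 nt exons of Tenm3 and Tenm4, and the groups lie apart for Adgrl2 and for Tenm2.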

How the data were processed

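The authors aligned 150 nt read pairs to GRCm38 (mm10 in the labels) and deposited raw read counts per Ensembl gene. The submitters' processing notes name HISAT2 2.1.0, HTSeq 0.6.1 and Bowtie 1.1.2, without saying what each did. The library kit named in the labels does not state strand. The authors also deposited rMATS output with the junction counts of both forms, form lengths and PSI. This other table lists the libraries of a group without replicate numbers, so its libraries are named by their place in the cell. Its group order follows the paper's definition of the PSI difference. The p-value and FDR columns hold the authors' own tests and were not used. PSI recomputed here differed by at most 0.0005 from the deposited values.

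Genes were tested on TMM-scaled counts with edgeR 4.0.16 (quasi-likelihood test, genes with at least 10 counts in 3 libraries, Benjamini-Hochberg adjusted p under 0.05). Inclusion and skipping counts were tested with edgeR on 12 columns (library, form and change of form between groups), where an event averaged 20 or more counts a library and 1 or more of each form. For PSI and ratios, exact permutation tests (two-sided) compared the groups. The fits were tested on simulated data. With 17169 genes simulated as these groups, 27.8% of changes of 0.5 and 70.0% of changes of 1 on the log2 scale were recovered. With 17548 events, 4.44% of log2 odds changes of 1 and 31.8% of those of 2 were recovered.

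All 10 genes were named, with their events of unadjusted p under 0.05, or otherwise the best covered tested event, and up to 3 called genes of each list in each direction. The 129, 82, 39 and 45 nt exons of Adgrl2, the 27 and 39 nt exons of Adgrl3, the 99 nt exon of Tenm4, the 150 nt exon of Adgrl1 and the paralogous short exons were named after their values had been seen. The genes and lists were chosen with earlier results of these data known. Exon lengths and annotation came from GENCODE M21 (GRCm38), and sequences from its transcripts. Software was R 4.3.3, limma 3.58.1, DESeq2 1.42.0 and Python 3.11.15. Alternatives were DESeq2, library size scaling, other filters, a replicate block, limma on the log2 ratio of forms with a pseudocount of 0.5, 1 event per segment, PSI without lengths and leaving out each library.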

Additional observations from a re-analysis of the deposited data

How the results depend on the processing

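Of the 10 genes, 4 were called in the reported fit, and 3 or 4 by library size scaling, without a filter, with at least 50 counts, with DESeq2 and with a replicate block. The block gave 3, without Adgrl1 (adjusted p = 0.055), and changed no other call of a member. Replicate numbers were shared by label only, since deviations of same-numbered libraries correlated at 0.054, 0.127 and -0.107. Leaving out 1 library gave 2 to 6 called genes, and Adgrl2 and Flrt1 were called each time. The signs of the uncalled Adgrl3 and Flrt2 turned with library size scaling (0.0084 and 0.0097), without control replicate 1 (Adgrl3, 0.0205), without control replicate 3 (Flrt2, 0.0949) and without L-DL KD replicate 3 (0.0747 and 0.0861), and with 1 library left out ranged from -0.132 to 0.0747 for Adgrl3 and from -0.108 to 0.0949 for Flrt2. Of the splicing events of the 10 genes, 1 was called in the reported fit and 0 to 1 with 1 library left out. With limma on the log2 ratio of forms the number was 0, with 9 at an unadjusted p under 0.05, and limma called 0 of all events. No paired analysis was possible for splicing because the columns carry no replicate numbers. PSI of Adgrl1 intron 19 changed by 0.316 without form lengths, against 0.243. Several short exons rest on under 30 reads in some libraries, and spread within a group also limits the splicing results, as for the 15 nt exon of Adgrl1 (0.302 to 0.528 in the KD-labelled libraries on 103 to 198 reads).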

Other observations

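Tenm2 held a further segment that was too poorly covered for the main test and is named because its values were noticed. Its 186 nt exon, exon 12 of Tenm2-201 (chr11:36139576-36139761, minus strand), was skipped by 0 reads in the controls, among 19, 14 and 26 reads, and by 2, 5 and 5 reads in the KD-labelled libraries. PSI was 1 in each control and 0.733, 0.643 and 0.615 in the KD-labelled libraries. A count of 0 allows a share of up to 15.8%, 21.4% and 11.5% of the reads of the controls. The form that is 3 nt shorter shares the skipping reads and had a PSI of 1 in each control and 0.429, 0.412 and 0.375 in the KD-labelled libraries.

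Of the tested events of the lists, 1 of 76 was called for binding partners and 1 of 34 for other adhesion receptors. For G proteins and cAMP enzymes it was 0 of 23. Over all genes, 0.255% of the 18829 events tested were called. The first of the called events was in Shank2, which encodes a postsynaptic scaffold that binds the tail of latrophilins. Its 21 nt exon at chr7:144408056-144408076 was included at 0.980, 1 and 1 in the controls and at 0.579, 0.487 and 0.244 in the KD-labelled libraries (edgeR adjusted p = 0.0162, under 0.05 in 5 of 10 alternatives, up to 0.147). The second was in Adgrb1, an adhesion receptor of the BAI family. A 15 nt stretch at a 5′ splice site, chr15:74584418-74584432, was included at 0.215, 0.201 and 0.210 in the controls and at 0.383, 0.387 and 0.426 in the KD-labelled libraries (edgeR adjusted p = 0.0376, under 0.05 in 3 of 10 alternatives, up to 0.221). Both were named after their values had been seen.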
